A study of Mus musculus with 120 samples.

Results

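The collagen genes were followed through 22 nuclei of the mouse thalamus, in neurons picked for where they project. They were chosen by symbol alone, as the genes whose name reads Col, a number, the letter a and a number, and 14 of the 16538 genes in the count table qualified. The mouse annotation GENCODE M21 names 44 genes in that way, and the other 30 were not analysed here. By family, the 14 were the transmembrane collagen gene Col25a1, the fibrillar Col24a1 and Col27a1, the fibril-associated Col9a2, Col9a3, Col12a1, Col16a1 and Col20a1, and the basement membrane and network-forming Col4a1, Col4a2 and Col8a1. The multiplexins Col15a1 and Col18a1 and the short collagen gene Col26a1 completed the list. All 14 passed the filter on low counts and entered every test.

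Collagens are proteins of several chains wound into a triple helix. Fibrillar collagens build fibrils, fibril-associated collagens decorate them, collagen type IV forms the sheets of basement membranes around vessels and at the brain surface, and multiplexins lie at those membranes and release fragments from their ends. Most collagen in the brain is laid down by vascular and meningeal cells, but neurons also make certain types, among them transmembrane collagens whose outer part can be shed.

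Each of the 120 RNA-seq libraries came from fluorescent neurons picked by hand from microdissected tissue after a tracer had been placed in their target region. The recorded tracers were the lipophilic dye DiI in 92 libraries and a retrograde AAV, a viral vector, carrying GFP in 19 or tdTomato in 9. All animals were recorded as wildtype except for 1 VA library of another genotype, at recorded ages of 55 to 447 (unit not given in the sources used here, and missing for 3 libraries). Counted by sex, 72 libraries were male, 47 female and 1 mixed.

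AAV in the striatum labelled the paraventricular nucleus PVT (n = 3), the intermediodorsal IMD (n = 4), the paracentral PCN (n = 4), the central medial CM (n = 4), the central lateral CL (n = 4), the parafascicular PF (n = 4) and the subparafascicular SPA (n = 4). A second CM group was labelled from the striatum with DiI (n = 3). DiI in primary motor cortex labelled the ventral anterior VA (n = 8), ventrolateral VL (n = 6) and ventromedial VM (n = 6), in mice that also had a virus in the substantia nigra or deep cerebellar nuclei. The cingulate cortex gave the anteromedial AM (n = 4, and 1 more library by AAV), the reuniens RE (n = 8) and the interanterodorsal IAD (n = 3). The retrosplenial cortex gave the anterodorsal AD (n = 4), anteroventral AV (n = 8) and laterodorsal LD (n = 5). From primary visual cortex came the lateral posterior LP (n = 9) and dorsal lateral geniculate LGd (n = 5), with cholera toxin B in the eyes. The barrel cortex gave the posterior PO (n = 7) and ventrobasal VB (n = 4). The insular cortex gave the parvicellular ventral posteromedial VPMpc (n = 6), and the orbital cortex the mediodorsal MD (n = 6). Where 22 nuclei are compared, CM stands for its AAV libraries and AM for its DiI libraries. The libraries came from 85 animals on 14 amplification dates, and 13 libraries pooled several animals, among them 4 of 5 for LGd and 3 of 4 for VB. Recorded ages above 182 occurred only in AV, LD and VPMpc, where they reached 444, 442 and 447.

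Total counts ran from 8159497 to 26444831 per library, from 14 to 200 cells (median 60.5). Slc17a6 and Tcf7l2, which mark excitatory thalamic neurons, were present in all 120 libraries, at no less than 518 and 813 CPM, the field's usual unit of counts scaled to library size. Of markers for the cells that make most brain collagen, the table held 1 of 9 for fibroblasts, and none of 10 for endothelium, of 10 for pericytes and smooth muscle and of 3 for choroid plexus. That fibroblast gene, Fbln1, ran from 16.98 to 185 CPM in the 30 striatum-labelled libraries and from 0 to 40.4 CPM in the 90 cortex-labelled ones, of which 56 had none. The part of vascular cells in the collagen levels was therefore not tested, and in bulk libraries fewer expressing cells and less RNA per cell cannot be told apart. For glia, the astrocyte gene S100b stayed at or under 16.02 CPM and the microglial gene Csf1r at or under 47.9 CPM, whereas 6 oligodendrocyte genes summed to 0.141 to 3266 CPM. Libraries of 1 group came from different animals or pools, while 44 animals gave libraries to several groups.

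The 14 genes differed widely in how strongly they followed the nucleus. A test that all 22 nuclei have equal means called 9 of the 14, at an adjusted p under 0.05, where 55.1% of all 16527 genes tested were called. The largest F values belonged to Col25a1 (28.2, rank 35 of all genes), Col27a1 (27.2, rank 42) and Col12a1 (15.8, rank 195). Col18a1, Col16a1, Col4a1, Col8a1, Col24a1 and Col15a1 followed, with adjusted p-values from 6.65e-09 for Col18a1 to 1.47e-06 for Col15a1. For Col9a3, Col4a2, Col26a1, Col9a2 and Col20a1 the adjusted p ran from 0.165 to 0.789. Amplification date could not be added to this test, since every group but VA lies on 1 or 2 dates, so nucleus and date cannot be told apart in it.

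**Figure D1:**
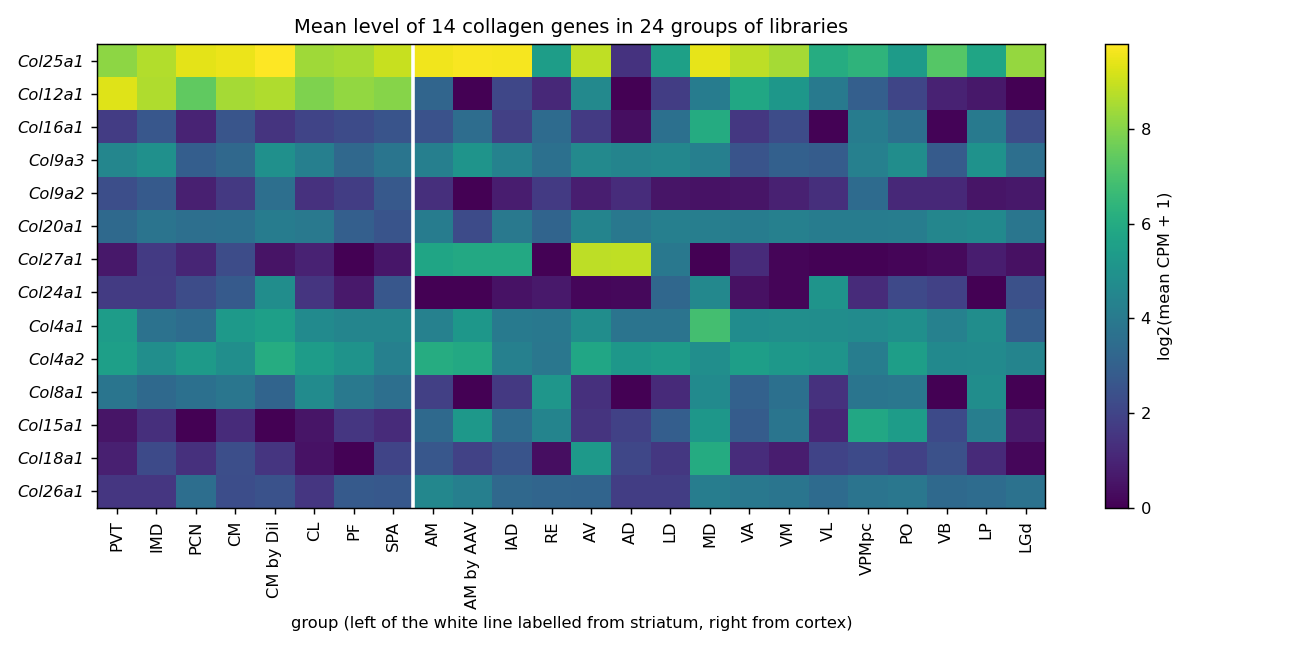
Mean level of the 14 collagen genes (rows) in the 24 groups of libraries (columns), as log2(mean CPM + 1), with striatum-labelled groups left of the white line and cortex-labelled groups right of it. Col12a1 is bright in every striatum-labelled group, Col27a1 in AV and AD (446 and 466 CPM), and Col25a1 in most groups but not in AD (1.71 CPM).

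Col25a1 encodes a neuronal transmembrane collagen whose shed outer part is found in amyloid plaques, and which motor axons need to reach muscle (mm10 chromosome 3, 130131501 to 130599877, plus strand). It was counted in all 120 libraries, from 0.414 to 1126 CPM. The highest means were 807 ± 83.8 in IAD, 755 ± 133 in AM, 718 ± 158 in CM, 685 ± 306 in MD and 669.9 ± 223 in PCN, in CPM with the SD over the libraries of the group. Below them stood 494 ± 151 in SPA, 461 ± 179.7 in AV, 455 ± 132 in VA, 399.7 ± 92.1 in IMD, 368 ± 204 in PF and 351 ± 126 in VM. Lower still were 337 ± 29.5 in CL, 303 ± 35.3 in LGd, 282 ± 60.2 in PVT and 147 ± 15.3 in VB. In VB the 4 libraries lay close together, at 168, 136, 149 and 135 CPM, clear of PVT above, where the 3 libraries stood at 228, 347 and 271 CPM.

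Below VB the means of Col25a1 were 82.3 ± 88.3 in VPMpc, 65.1 ± 25.9 in VL, 52.7 ± 23.4 in LP, 46.3 ± 36.00 in LD, 42.9 ± 15.3 in RE and 39.97 ± 19.7 in PO. These nuclei were labelled from the insular, motor, visual, retrosplenial, cingulate and barrel cortex. AD stood apart from all of them. Its 4 libraries held 1.27, 4.46, 0.708 and 0.414 CPM, while the lowest library of its neighbour in this order, PO, held 18.03 CPM. Of the 21 steps between neighbours in the order of the nuclei, 2 were larger than the larger SD of the pair with ranges that did not overlap, namely PVT over VB and PO over AD. Every other neighbouring pair overlapped.

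Col12a1 encodes a fibril-associated collagen best known from tendon, ligament and skin, where it lies along type I collagen fibrils (mm10 chromosome 9, 79598991 to 79718831, minus strand). Its mean was highest in PVT, where the 3 libraries held 606, 696 and 607 CPM. The other striatum-labelled nuclei averaged 389.9 ± 139.9 in IMD, 358 ± 108 in CM, 294 ± 18.8 in PF, 259 ± 44.6 in SPA, 238 ± 60.4 in CL and 169 ± 98.9 in PCN, in CPM. The 4 PCN libraries held 298, 124, 187 and 66.6 CPM, so PCN came nearest to the cortex-labelled nuclei. Among these VA was highest, with libraries from 36.1 to 69.6 CPM (median 57.4), followed by 35.6 ± 27.7 in VM, 23.6 ± 29.6 in AV, 16.2 ± 37.4 in MD, 15.4 ± 11.1 in VL and 8.23 ± 11.6 in AM. The remaining nuclei averaged 6.85 ± 11.9 in VPMpc, 3.24 ± 3.22 in IAD, 3.10 ± 2.83 in PO, 2.47 ± 3.39 in LD, 1.18 ± 2.32 in RE, 0.917 ± 1.71 in VB and 0.560 ± 0.628 in LP, in CPM. No read fell on Col12a1 in the 4 AD and the 5 LGd libraries.

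In the order of the nuclei, PVT over IMD and PCN over VA were the only neighbouring steps of Col12a1 larger than the larger SD, and PVT and IMD did not overlap while PCN and VA did. A single library set the mean in some cortex-labelled groups. In MD, 5 libraries held 0 to 3.08 CPM and replicate 3 held 92.4 CPM. In AV, replicate 1 held 90.3 CPM against 1.25 to 35.6 CPM in the other libraries. Of the 90 cortex-labelled libraries 5 exceeded the lowest striatum-labelled library (66.6 CPM, a PCN library), 1 each in MD, AV and VM and 2 in VA.

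Col27a1 encodes a fibrillar collagen of cartilage and developing tissues (mm10 chromosome 4, 63214004 to 63334991, plus strand). It was highest in nuclei of the anterior group. AD held 599, 312, 689 and 265 CPM, a mean of 466 ± 209 CPM (SD, n = 4), and AV held 227 to 697 CPM (median 399), a mean of 446 ± 154 CPM (SD, n = 8). IAD held 33.5, 92.9 and 51.9 CPM, AM 88.3, 66.1, 9.97 and 50.4 CPM, and the single AM library by AAV 59.7 CPM. AD and AV did not differ beyond their spread, nor did IAD and AM, while the step from AV down to IAD had no overlap and that from AM to LD exceeded the larger SD. In LD, 1 library held 57.02 CPM and the others at most 8.69 CPM. The remaining means were 3.84 ± 5.59 in CM, 2.13 ± 3.41 in IMD, 1.30 ± 3.30 in VA, 1.04 ± 1.64 in PCN and 0.927 ± 1.26 in CL, in CPM. Below 1 CPM lay 0.714 ± 1.42 in LP, 0.569 ± 0.948 in PVT, 0.519 ± 0.732 in SPA, 0.343 ± 0.422 in LGd and 0.184 ± 0.0219 in VB. Lowest of the nuclei with reads were 0.105 ± 0.164 in VM, 0.0977 ± 0.117 in PO, 0.0426 ± 0.0556 in RE, 0.0372 ± 0.0910 in VPMpc and 0.0348 ± 0.0610 in VL. No read fell on Col27a1 in the PF and MD libraries.

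Col24a1, the second fibrillar collagen gene (mm10 chromosome 3, 145292472 to 145552011, plus strand), was low and uneven, with no read in 52 of 120 libraries. VL had the highest mean, 32.1 ± 26.05 CPM (SD, n = 6), from 6.73 to 79.5 CPM (median 26.4), and all its libraries had reads. The 3 CM libraries by DiI held 37.2, 31.6 and 11.9 CPM, whereas those by AAV held 7.84, 11.6, 0.436 and 3.14 CPM. MD averaged 22.8 ± 50.6 CPM, of which replicate 2 held 126 CPM, while 4 of its 6 libraries had no read. The means below these were 8.77 ± 8.54 in LD, 5.76 ± 4.97 in CM, 5.26 ± 3.81 in SPA, 4.38 ± 4.30 in LGd and 3.88 ± 6.36 in PCN. Next came 3.43 ± 6.09 in PO, 2.67 ± 2.42 in VB, 2.26 ± 2.84 in PVT, 2.22 ± 3.58 in IMD, 1.85 ± 1.96 in CL and 1.31 ± 2.04 in VPMpc. In RE, PF, IAD, VA, AD, AV, VM, AM and LP they did not exceed 0.609 CPM. No step between neighbours in this order was larger than the larger SD.

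**Figure D2:**
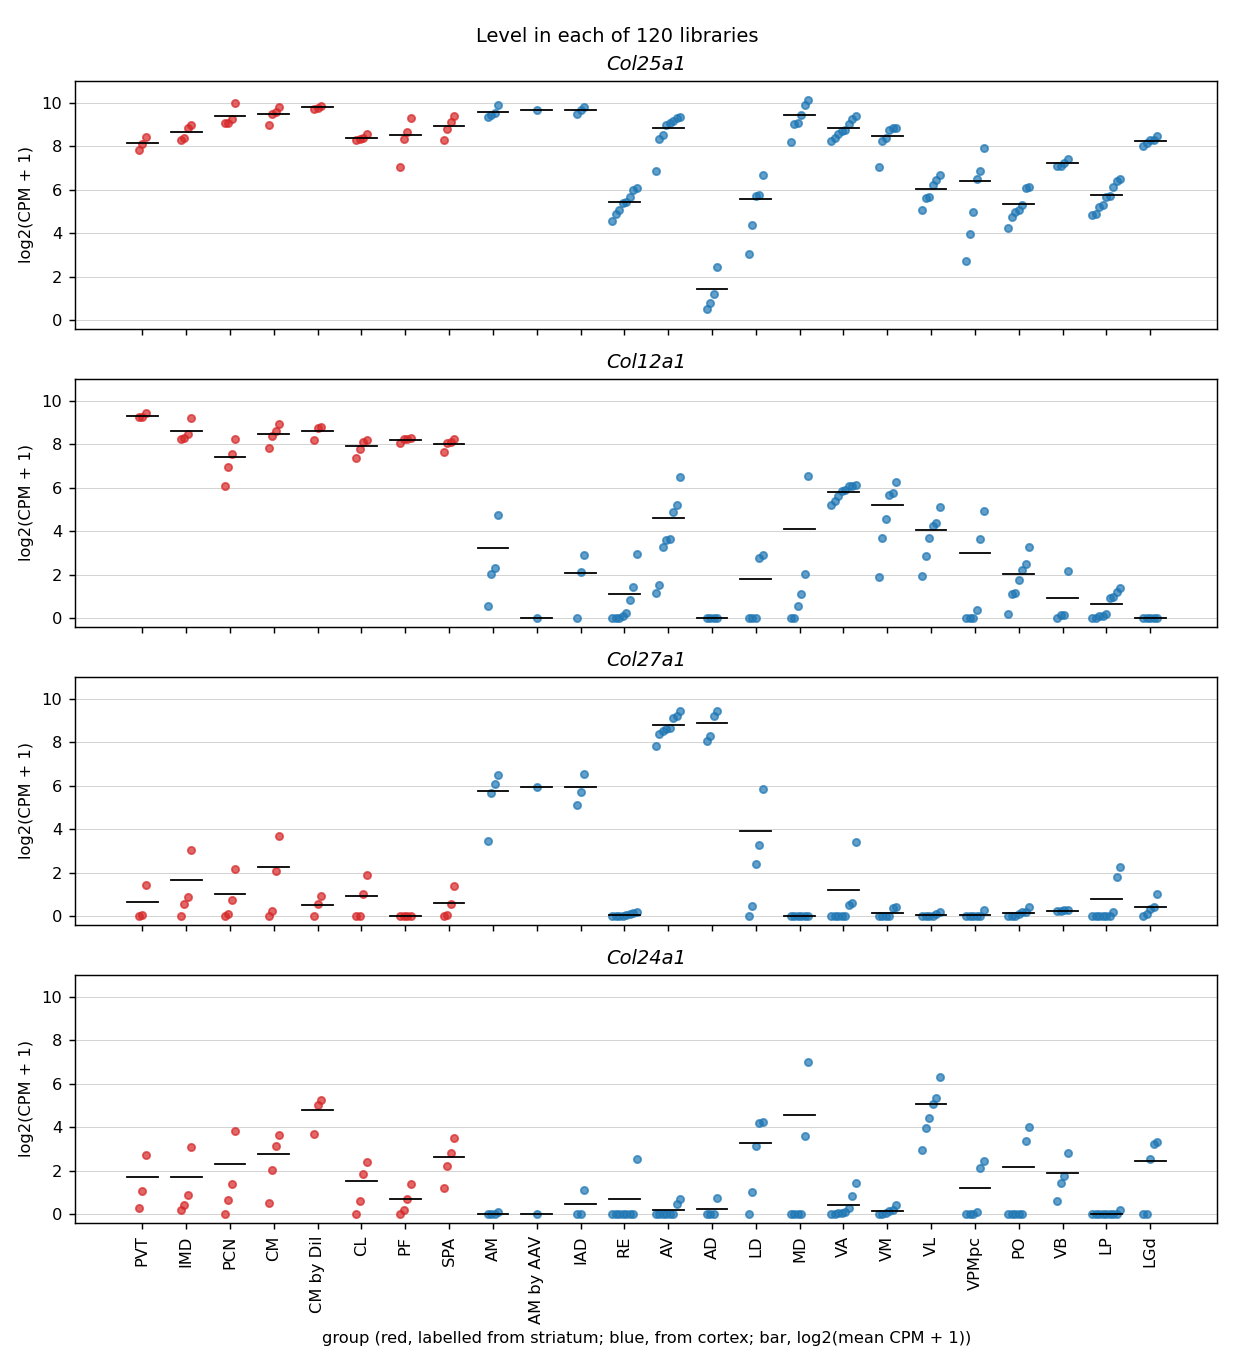
Level of Col25a1, Col12a1, Col27a1 and Col24a1 in each of the 120 libraries, as log2(CPM + 1) by group, with a bar at the mean, red for groups labelled from the striatum and blue from the cortex. The red Col12a1 points all lie at or above 66.6 CPM, and the AD points of Col25a1 between 0.414 and 4.46 CPM.

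AD had both the lowest Col25a1 mean and the highest Col27a1 mean, and the start regions of these 2 genes are given because they move furthest apart there. RefSeq (GRCm38.p6) gives for each an annotated start, and the windows run from 250 bases before it to 50 after it, 5′ to 3′. Capitals mark GGGCGG (the GC box), CCAAT (the box of that name), TATAAA (the TATA box) or AGGTCA (a nuclear receptor half-site), each sought on either strand, with overlaps allowed.
Col25a1 promoter, chr3:130180595-130180894, plus strand: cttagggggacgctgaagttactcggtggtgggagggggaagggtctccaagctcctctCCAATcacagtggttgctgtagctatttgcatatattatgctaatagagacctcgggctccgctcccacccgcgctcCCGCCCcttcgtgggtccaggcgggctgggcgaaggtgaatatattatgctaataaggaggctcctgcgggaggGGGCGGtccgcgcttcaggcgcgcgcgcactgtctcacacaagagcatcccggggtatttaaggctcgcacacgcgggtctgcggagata
Col27a1 promoter, chr4:63215162-63215461, plus strand: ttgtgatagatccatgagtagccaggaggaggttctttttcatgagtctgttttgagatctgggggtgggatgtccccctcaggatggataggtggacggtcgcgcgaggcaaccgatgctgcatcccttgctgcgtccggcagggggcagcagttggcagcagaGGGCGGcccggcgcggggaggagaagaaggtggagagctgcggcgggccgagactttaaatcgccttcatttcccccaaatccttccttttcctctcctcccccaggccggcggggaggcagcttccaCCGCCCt

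The Col25a1 window held 2 GC boxes and 1 CCAAT box in 60.00% G and C, and the Col27a1 window 2 GC boxes in 61.7%. Neither held TATAAA or AGGTCA. Over all 32851 promoter windows of the table, 35.7% held GGGCGG, 37.4% CCAAT, 13.6% TATAAA and 16.3% AGGTCA. The RefSeq starts lie inside the gene spans given above, so longer transcripts begin further upstream. Of the 14 genes, 11 had a window in the table. A match describes letters only.

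Col4a1 and Col4a2 encode the chains of collagen type IV found in nearly all basement membranes, and they lie head to head on chromosome 8, Col4a1 on the minus strand (mm10 11198423 to 11312826) and Col4a2 on the plus strand (11312805 to 11449287). Their annotated starts are 21 bases apart, the first exons overlap, and the promoter windows share 78 bases (11312777 to 11312854). Both windows are given because 1 short region holds both starts, with the same letters in capitals as above.
Col4a1 promoter, chr8:11312777-11313076, minus strand: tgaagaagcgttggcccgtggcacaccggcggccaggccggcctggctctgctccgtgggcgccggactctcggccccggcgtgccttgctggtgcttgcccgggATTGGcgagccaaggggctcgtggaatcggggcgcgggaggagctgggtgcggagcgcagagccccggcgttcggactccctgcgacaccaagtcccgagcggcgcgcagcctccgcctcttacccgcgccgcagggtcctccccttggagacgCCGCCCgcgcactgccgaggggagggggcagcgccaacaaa
Col4a2 promoter, chr8:11312555-11312854, plus strand: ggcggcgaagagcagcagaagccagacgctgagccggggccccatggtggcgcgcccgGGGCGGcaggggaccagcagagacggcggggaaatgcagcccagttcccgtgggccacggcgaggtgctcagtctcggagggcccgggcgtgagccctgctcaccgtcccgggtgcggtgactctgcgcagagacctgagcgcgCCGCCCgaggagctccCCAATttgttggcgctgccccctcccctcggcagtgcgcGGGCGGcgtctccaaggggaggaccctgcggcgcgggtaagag

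The Col4a1 window held 74.00% G and C with 1 GC box and 1 CCAAT box, and the Col4a2 window 73.7% with 3 GC boxes and 1 CCAAT box. The median over all promoter windows was 52.7%.

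Col4a1 had reads in all 120 libraries and was highest in MD, at 116 ± 92.2 CPM (SD, n = 6), from 25.99 to 263 CPM (median 102). It averaged 41.1 ± 18.1 in PVT, 37.4 ± 19.2 in CM, 28.3 ± 11.2 in PO, 27.4 ± 7.43 in VM, 27.03 ± 16.3 in VL, 26.99 ± 18.3 in LP and 26.8 ± 16.3 in AV. Next came 26.1 ± 14.3 in VA, 25.3 ± 11.3 in VPMpc, 24.5 ± 16.4 in CL, 20.8 ± 4.33 in SPA, 20.7 ± 8.90 in PF, 18.9 ± 2.15 in VB and 18.5 ± 4.59 in AM. The lowest means were 15.3 ± 5.37 in IAD, 14.1 ± 16.8 in RE, 12.5 ± 5.63 in AD, 12.5 ± 7.56 in LD, 11.8 ± 4.36 in IMD, 9.94 ± 5.09 in PCN and 6.19 ± 3.31 in LGd, in CPM. The 5 LGd libraries held 8.18, 8.99, 0.649, 7.27 and 5.87 CPM. Between them neighbouring nuclei did not differ beyond their spread, with MD at one end and LGd at the other. Against the mean of the other 21 nuclei, MD was called higher (adjusted p = 2.11e-12) and LGd lower (adjusted p = 0.00514). The LGd call was lost with the libraries numbered replicate 3 left out of every group (adjusted p = 0.0503) and without pooled libraries (adjusted p = 1).

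Col4a2 was not called in the main test over nuclei. Its highest means were 66.2 ± 80.5 in AM, 55.1 ± 72.96 in AV, 44.8 ± 25.4 in PVT, 44.3 ± 15.8 in PO, 43.4 ± 27.6 in VA, 41.6 ± 27.96 in CL and 40.1 ± 55.9 in LD. The middle of the order held 39.7 ± 12.9 in PCN, 36.7 ± 15.7 in VM, 35.3 ± 34.9 in AD, 32.2 ± 11.2 in VL, 32.01 ± 15.1 in PF, 27.8 ± 17.6 in CM, 27.6 ± 19.2 in MD and 27.5 ± 15.7 in IMD. The lowest were 24.9 ± 17.6 in LP, 23.8 ± 9.75 in VB, 20.1 ± 25.4 in LGd, 18.5 ± 1.82 in SPA, 18.1 ± 5.70 in IAD, 16.8 ± 14.4 in VPMpc and 13.7 ± 9.13 in RE, in CPM. Single libraries set several means, since replicate 3 of AM held 186 CPM against at most 37.3 in the others, replicate 1 of AV 235 against at most 40.9, and replicate 1 of LD 137 against at most 36.04.

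Per kilobase of exon, Col4a1 exceeded Col4a2 in 34 of 120 libraries and in the means of 3 of 22 nuclei. These were MD, with 15.5 against 4.17 CPM per kb, VPMpc with 3.38 against 2.54, and CM with 5.01 against 4.19. In MD this held in 5 of 6 libraries. Over the log2 means of the 22 nuclei the levels of the 2 genes had a Pearson correlation of 0.346, given as a description because the nuclei share dates, tracers and animals. The library preparation did not keep the strand, so reads in the overlapping exons could belong to either gene.

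**Figure D3:**
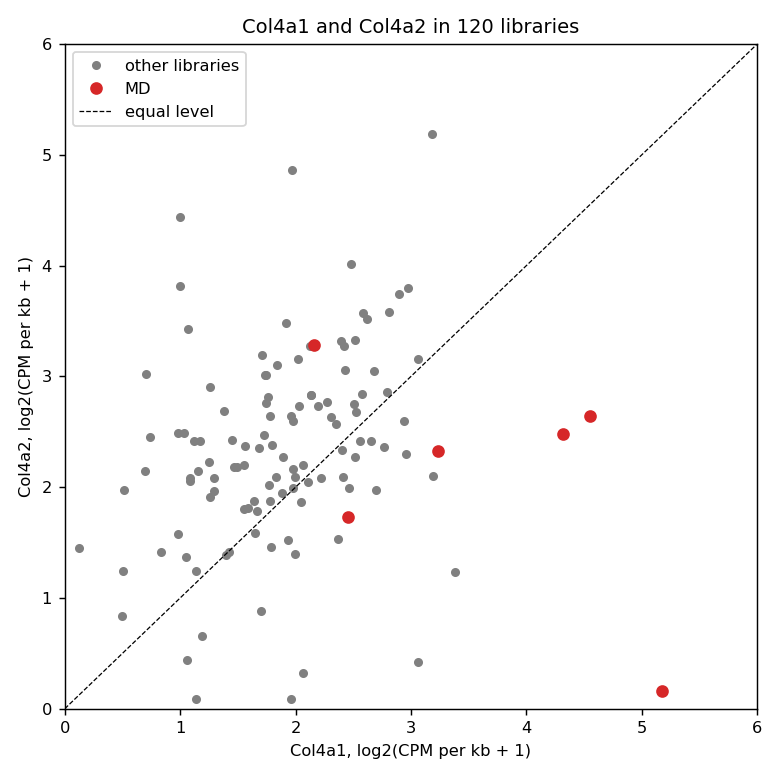
Col4a1 (horizontal) against Col4a2 (vertical) in 120 libraries, each as log2(CPM per kb + 1), with MD in red, other libraries in grey and equal levels on the dashed line. Points above the line have more Col4a2, and 5 of the 6 MD libraries lie below it.

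Col8a1, a short-chain collagen that forms networks in the cornea and in vessel walls (mm10 chromosome 16, 57624258 to 57754737, minus strand), was highest in RE, where all 8 libraries had 15.9 to 61.7 CPM (median 28.9). LP followed at 27.04 ± 22.2 CPM, from 0.542 to 59.5 CPM (median 22.8), and CL at 25.5 ± 15.4 CPM. MD averaged 24.9 ± 56.4 CPM through replicate 6 at 139.9 CPM, its other libraries holding at most 9.25. The means then fell through 14.6 ± 5.60 in PF, 13.7 ± 12.4 in PO, 13.2 ± 6.52 in CM, 12.9 ± 5.64 in PVT, 12.8 ± 8.62 in VPMpc and 11.3 ± 6.75 in PCN. Below them came 11.3 ± 18.9 in VM, 10.8 ± 4.39 in SPA, 9.18 ± 2.48 in IMD, 7.13 ± 16.7 in VA and 2.59 ± 3.75 in AM, in CPM. In IAD (2.05 ± 1.55), VL (1.66 ± 3.20), AV (1.58 ± 3.39) and LD (1.22 ± 2.52) they were lowest among nuclei with more than 1 read, LGd had 1 read in all, and the 4 AD and 4 VB libraries had none. No neighbouring step exceeded the larger SD.

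Col15a1 and Col18a1 are multiplexins, which lie in basement membranes and yield the fragments restin and endostatin. Col15a1 (mm10 chromosome 4, 47208161 to 47313167, plus strand) was highest in VPMpc, at 57.5 ± 29.2 CPM (SD, n = 6), with 6 libraries from 28.03 to 91.5 CPM (median 50.96). PO averaged 41.5 ± 57.5 CPM, of which replicate 4 held 171 CPM and the others 14.03 to 29.6. RE held 8.21 to 33.8 CPM (median 16.6) and LP 1.18 to 41.6 CPM (median 15.2), and these nuclei had reads in every library. MD averaged 35.8 ± 74.4 CPM through replicate 2 at 187 CPM. Further means were 12.8 ± 16.5 in VM, 10.1 ± 4.93 in IAD, 9.25 ± 6.82 in AM, 6.52 ± 5.22 in LD, 6.19 ± 6.62 in VA and 3.58 ± 5.56 in VB. Lower came 2.76 ± 5.53 in AD, 1.90 ± 2.18 in PF, 1.81 ± 4.21 in AV and 1.47 ± 2.90 in IMD, in CPM. In the striatum-labelled SPA, CM, PVT and CL they were 1.32 ± 1.524, 1.31 ± 1.96, 0.469 ± 0.467 and 0.460 ± 0.433, in VL 1.08 ± 1.43 and in LGd 0.643 ± 1.26 CPM, and no PCN library had a read. Of the neighbouring steps of Col15a1, only CL over PCN exceeded the larger SD.

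Col18a1 (mm10 chromosome 10, 77052178 to 77166548, minus strand) stood out in MD, at 63.99 ± 41.6 CPM (SD, n = 6), from 1.24 to 104 CPM (median 82.3). AV came next at 38.6 ± 59.01 CPM, although replicate 3 held 183 CPM and the other libraries 0.248 to 28.7. The remaining nuclei lay lower, at 5.35 ± 7.41 in AM, 4.76 ± 3.82 in IAD, 4.39 ± 5.15 in VB, 4.15 ± 5.30 in CM, 3.65 ± 8.11 in VPMpc, 3.54 ± 1.86 in IMD and 3.26 ± 5.84 in AD. Then followed 2.99 ± 1.00 in SPA, 2.96 ± 3.01 in VL, 2.75 ± 2.51 in PO, 1.98 ± 3.77 in LD, 1.53 ± 2.09 in PCN, 1.35 ± 3.52 in VA and 1.27 ± 1.45 in LP. The last were 0.794 ± 1.29 in PVT, 0.743 ± 0.426 in VM, 0.377 ± 0.683 in CL, 0.289 ± 0.542 in RE, 0.128 ± 0.286 in LGd and 0.0389 ± 0.0778 in PF, in CPM. MD and AV were each called higher than the mean of the other 21 nuclei (adjusted p = 7.96e-12 and 9.5e-10).

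Col16a1, a fibril-associated collagen gene (mm10 chromosome 4, 130047840 to 130099283, plus strand), was also highest in MD, at 64.05 ± 68.8 CPM (SD, n = 6), from 2.28 to 159 CPM (median 36.4). Next came 16.4 ± 14.2 in VPMpc, 15.2 ± 6.91 in LP, 11.3 ± 8.42 in LD, 10.8 ± 10.97 in PO and 9.59 ± 5.56 in RE. The next nuclei averaged 5.26 ± 3.12 in IMD, 4.96 ± 3.55 in CM, 4.89 ± 3.20 in SPA, 4.46 ± 2.22 in AM, 3.86 ± 5.84 in VM and 3.81 ± 7.10 in LGd. They were followed by 3.76 ± 4.15 in PF, 2.99 ± 0.589 in CL, 2.59 ± 0.930 in IAD, 2.38 ± 1.89 in PVT, 2.20 ± 3.89 in AV and 2.02 ± 2.95 in VA. PCN, AD, VB and VL had 0.986 ± 1.59, 0.278 ± 0.557, 0.0549 ± 0.0663 and 0.0365 ± 0.0427 CPM. VB and VL were called lower and MD, LD, LP, PO, RE and VPMpc higher than the mean of the other 21. The LD call was lost with RLE size factors (adjusted p = 0.0577), with the replicate number as a block (0.0641) and with replicate number 1, 3, 4, 6 or 7 left out of every group in turn (up to 0.235). The PO call was lost with the block (0.0735) and without number 1 (0.236), and that of RE without number 1, 4, 5, 7 or 8 (adjusted p 0.0606 to 0.0901). VB and VL lost theirs with the newer quasi-likelihood (0.326 and 0.332), VB without number 1 or 2 (up to 1) or without pooled libraries (0.974), and VL without number 2 (1).

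The remaining members were not called over the nuclei in the main fit. Col9a3 was called with DESeq2 (adjusted p = 0.0436), the newer quasi-likelihood (0.000656), without pooled libraries (0.00416), without the libraries that stand apart (0.00481) and without replicate number 2 in every group (0.00791). The newer quasi-likelihood also called most of Col4a2, Col26a1, Col9a2 and Col20a1, and 10134 of all 16527 genes. Col9a3, a chain of the cartilage collagen type IX (chromosome 2, 180597790 to 180622189), averaged 31.00 ± 17.7 in LP, 29.2 ± 13.5 in IMD, 26.7 ± 23.02 in PO, 23.4 ± 24.9 in AV, 22.3 ± 47.7 in LD, 21.6 ± 12.9 in PVT and 20.4 ± 24.8 in AD. Then came 19.5 ± 18.4 in IAD, 18.4 ± 11.1 in VPMpc, 17.9 ± 2.35 in AM, 17.7 ± 1.63 in CL, 17.5 ± 20.9 in MD, 13.1 ± 8.16 in SPA and 11.3 ± 11.3 in RE. Its lowest means were 10.8 ± 8.98 in LGd, 9.03 ± 2.62 in PF, 8.91 ± 4.62 in CM, 7.09 ± 10.7 in VM, 6.55 ± 3.22 in PCN, 6.22 ± 4.58 in VL, 5.98 ± 1.39 in VB and 4.81 ± 4.71 in VA, in CPM. LD replicate 2 held 108 CPM and the 4 others at most 2.41. Some exon sequence of Col9a3 overlaps Tcfl5 on the opposite strand, so its reads are not certain. The same limit holds for Col15a1 and Col4a2, which overlap exons of Gm12426 and Gm15419 on the opposite strand. It also holds for Col20a1, which overlaps BX649560.1 on the same strand.

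Col26a1, first described in testis and ovary (chromosome 5, 136741759 to 136883209), averaged 22.01 ± 14.9 in AM, 16.7 ± 27.3 in MD, 14.2 ± 15.9 in VA, 13.9 ± 8.60 in PO, 12.96 ± 8.38 in VM and 12.6 ± 11.6 in VPMpc. It continued with 11.98 ± 8.02 in LGd, 10.7 ± 17.8 in PCN, 10.02 ± 11.9 in LP, 9.68 ± 8.21 in VL, 9.13 ± 5.01 in VB, 8.97 ± 4.22 in IAD, 8.08 ± 6.32 in RE and 7.82 ± 8.95 in AV. It ended with 5.84 ± 5.91 in PF, 5.52 ± 1.68 in SPA, 3.97 ± 1.47 in CM, 2.47 ± 2.94 in AD, 2.46 ± 4.60 in LD, 1.94 ± 2.35 in PVT, 1.93 ± 1.14 in IMD and 1.91 ± 1.22 in CL, in CPM. Its levels were spread within every group, with a median coefficient of variation of 81.5% over the 16 nuclei with a mean of at least 5 CPM. Col20a1, another fibril-associated gene, had reads in all libraries, between 4.77 (SPA) and 24.1 CPM (LP) by nucleus. Col9a2, the partner chain of Col9a3, reached 9.76 CPM (VPMpc) and had no read in 36 libraries.

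Within groups the spread was large for most members. In nuclei with a mean of at least 5 CPM the median coefficient of variation was 33.4% for Col25a1, 47.3% for Col12a1, 48.1% for Col4a1 and 51.2% for Col27a1, against 76.9% for Col15a1 and 139% for Col18a1. In 27 of 169 combinations of a member and a group of at least 4 libraries with a mean of at least 5 CPM, the highest library held over 50% of the group's summed CPM, and 6 of these were in MD.

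Levels of different collagen genes can be set side by side only per length, here as mean CPM per kilobase of annotated exon. The 14 genes together ran from 22.6 CPM per kb in RE to 114 in MD. Col25a1 led in 15 of the 22 nuclei and held 74.1% of the sum in IAD. Col12a1 led in PVT at 41.8 CPM per kb, ahead of Col25a1 at 21.8. Col27a1 led in AD, at 35.8 CPM per kb and 67.96% of the sum, while Col25a1 there had 0.132. In the other 5 nuclei the leading members were Col9a3 in LP (8.05 CPM per kb) and PO (6.94), Col15a1 in VPMpc (9.05), Col4a2 in LD (6.06) and Col8a1 in RE (4.39). Some leads were narrow, and none was tested. In PO, Col4a2 (6.69) and Col15a1 (6.54) lay close behind Col9a3. Among the nuclei led by Col25a1, Col4a2 lay close behind in VL (4.87 against 5.03) and Col27a1 in AV (34.3 against 35.6). The lead of Col4a2 in LD rests on replicate 1, which held 68.5% of the summed CPM of the group, and the mean over the other LD libraries was 15.8 CPM.

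**Figure D4:**
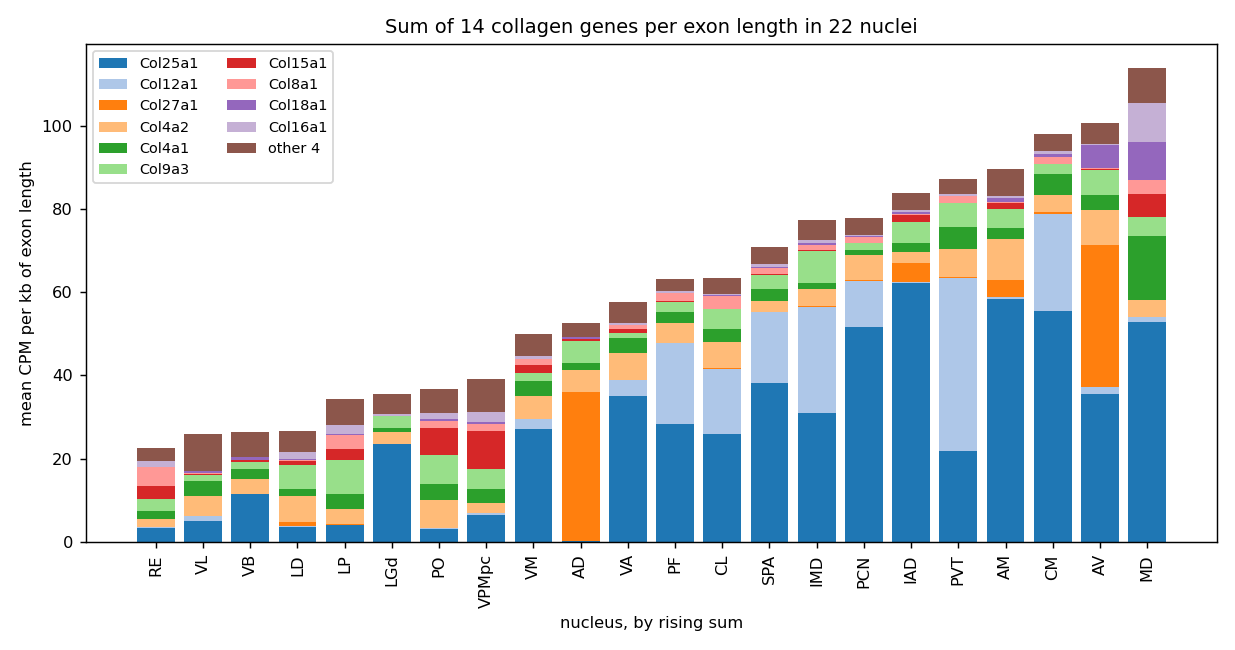
Mean CPM per kb of exon length of the collagen genes, stacked for each of the 22 nuclei in rising order of their sum, from 22.6 in RE to 114 in MD. The Col25a1 segment is the largest in 15 nuclei and nearly absent in AD, where Col27a1 fills 67.96%.

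Whether collagen genes separate nuclei that project to striatum from those labelled from cortex was asked over counts summed per nucleus. Col12a1 was higher in the striatum-labelled nuclei, at 347 ± 149.6 CPM over the 7 striatum-labelled nuclei and 11.2 ± 15.8 CPM over the 15 cortex-labelled nuclei, a log2 fold change of 4.95 (SE 0.84, adjusted p = 0.000365). By summed counts, the lowest of the 7 nuclei, at 188 CPM, exceeded the highest of the 15, at 54.3. Col15a1 went the other way, at 1.03 ± 0.722 CPM over the 7 striatum-labelled nuclei and 14.05 ± 15.6 CPM over the 15 cortex-labelled nuclei, a log2 fold change of -3.77 (SE 0.91, adjusted p = 0.00536). Col26a1 (-1.22, SE 0.39, adjusted p = 0.0313) and Col20a1 (-0.65, SE 0.21, adjusted p = 0.0313) were lower too. In all, 1 member was higher and 3 were lower, and 18.4% of 15440 genes were called in this comparison. The median log2 fold change was -0.31 over the 14 members and -0.08 over all genes tested.

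Tracer and sex run with this class, since AAV was the tracer for the 7 nuclei and DiI for the 15, and 5 of the 7 (all but PCN and CM) came from females. Where the tracer was swapped, the 3 CM libraries by DiI held 291, 440.1 and 435 CPM of Col12a1, and the AM library by AAV had no Col12a1 read. With CM taken from its DiI libraries, Col12a1 stayed higher (log2 fold change 4.97, adjusted p = 0.000465). For the 2 dates of amplification shared by both classes, 8 sums per group and date gave a call for Col12a1 (log2 fold change 3.65, adjusted p = 0.00289) and for Col9a3 (log2 fold change 2.35, adjusted p = 0.011). Col15a1 (log2 fold change -3.16, adjusted p = 0.355), Col26a1 (log2 fold change -1.76, adjusted p = 0.142) and Col20a1 (log2 fold change -0.37, adjusted p = 0.591) lost theirs there. Of 14677 genes tested within the dates, 874 were called, against 2837 in the main class test. Within the dates the unit was a group on a date, not the nucleus as in the main class test. CM by DiI was not left out beforehand. Col20a1 also lost its call with CM from DiI (adjusted p = 0.0756), without pooled libraries (0.067) and without PVT, PF or SPA, and Col26a1 without PVT, IMD, CM or CL (adjusted p up to 0.0798). Col27a1, at 1.36 ± 1.42 CPM over the 7 striatum-labelled nuclei and 67.3 ± 152 CPM over the 15 cortex-labelled nuclei, missed the threshold (log2 fold change -5.63 (SE 2.06, adjusted p = 0.0576)) and passed with DESeq2 (adjusted p = 0.00174), the newer quasi-likelihood (0.0241) and CM from DiI (0.0422). The fibroblast gene Fbln1 was also higher in the striatum-labelled libraries, with the levels given above, and its part in the Col12a1 level was not tested.

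**Figure D5:**
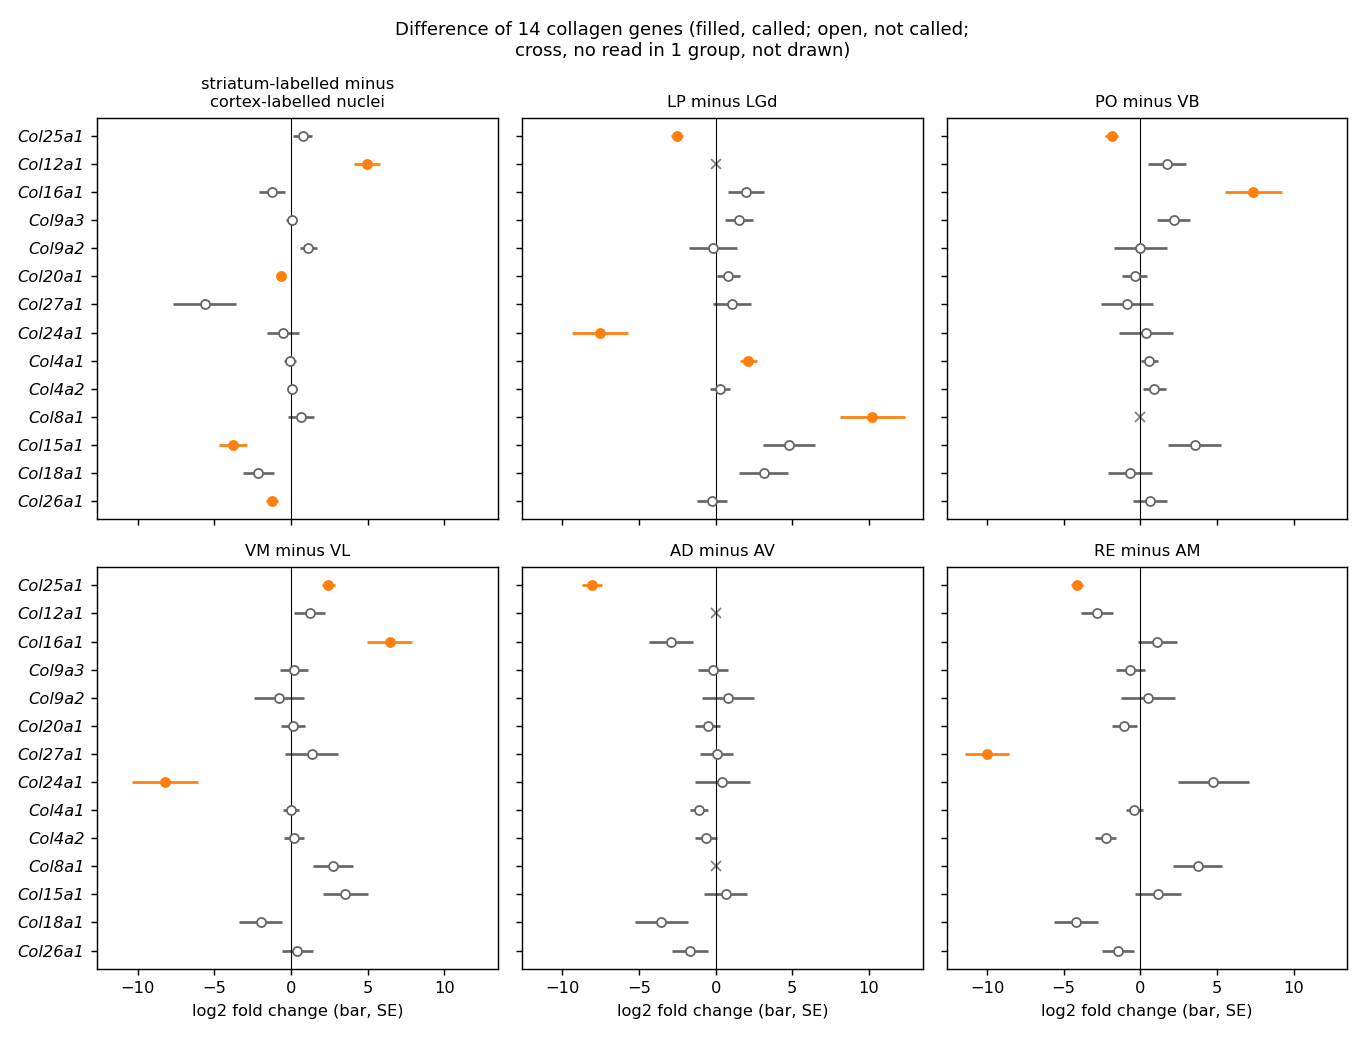
Log2 fold change (horizontal, bars are SE) of the 14 collagen genes in the class comparison and in 5 pairs of nuclei labelled from the same target, filled where called, open where not, with a cross at 0 where 1 group had no read and no value is drawn. Col25a1 is filled in all 5 pairs, negative in 4 and positive (2.43) in VM minus VL.

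Pairs of nuclei labelled from the same target hold the target and the tracer constant. They ask how nuclei that project to 1 area differ. The order of the names gives the sign of each difference, first minus second.

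In the visual pair, LP differed from LGd in 4 of the 14 members, where 3.62% of all genes were called. Col25a1 was lower in LP, whose libraries held 27.5 to 89.1 CPM (median 50.1), than in LGd, whose 5 libraries held 282, 316, 257, 350.4 and 309.5 CPM, a log2 fold change of -2.52 (SE 0.38, adjusted p = 4.27e-07). No LP library reached the lowest LGd library. Col4a1 was higher in LP, from 10.8 to 70.4 CPM (median 17.5) against 8.18, 8.99, 0.649, 7.27 and 5.87 CPM, again without overlap, a log2 fold change of 2.12 (SE 0.56, adjusted p = 0.0113). Col8a1 was all but absent from LGd, with 3405 against 1 summed counts, a ratio of 1756 with a 95% counting interval of 315 to 69383 (adjusted p = 0.000508). Col24a1 was the reverse, with reads in 3 of 5 LGd libraries (0, 0, 8.36, 4.73 and 8.83 CPM) and in 1 of 9 LP libraries, 296 against 2 summed counts, a ratio of 287 with a 95% counting interval of 78.7 to 2381 (adjusted p = 0.00535).

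Of the 5 LGd libraries 4 were pools of animals. With pooled libraries left out, 1 LGd library remained, assumed to vary like the other groups, and 2 members were called, Col4a1 (log2 fold change 2.19) and Col8a1 (8.68) having lost their calls (adjusted p = 1 for both, the Col8a1 value being fitted against at most 1 read). Col4a1 also lost its call without LGd replicate 3 (adjusted p = 0.0657), the library with 0.649 CPM. The newer quasi-likelihood of edgeR did not call Col24a1 (adjusted p = 0.164).

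The somatosensory pair differed in 3 members, where 2.65% of all genes were called. Col25a1 was lower in PO, from 18.03 to 67.7 CPM (median 32.8), than in VB, at 168, 136, 149 and 135 CPM, without overlap and with a log2 fold change of -1.88 (SE 0.42, adjusted p = 0.00237). Col8a1 had reads in all 7 PO libraries, from 1.88 to 31.6 CPM (median 9.18), and none in the 4 VB libraries, so that it was at least 225-fold higher in PO against a floor of 3 counts over the VB libraries together (adjusted p = 0.00389). Col16a1 was higher in PO as well, from 1.20 to 31.9 CPM (median 9.76), with 1158 against 3 summed counts, a ratio of 184 with a 95% counting interval of 62.7 to 892 (adjusted p = 0.00879). With amplification date as a block, Col8a1 alone was called, Col25a1 (log2 fold change -1.80, adjusted p = 0.0712) and Col16a1 (log2 fold change 6.21, adjusted p = 0.0788) having missed the threshold. The block also lowered the calls over all genes, from 438 to 222. Oligodendrocyte genes summed to 61.7 to 1651 CPM in VB and 0.141 to 206 CPM in PO, and their part was not tested. Without pooled libraries, which leaves 1 VB library, none of the 3 was called, at log2 fold changes of -1.75 for Col25a1 (adjusted p = 0.517), 6.45 for Col16a1 (adjusted p = 0.882) and 11.02 for Col8a1 (adjusted p = 0.746). The Col16a1 and Col8a1 values there are fitted against few or no reads and depend on the prior count. The newer quasi-likelihood did not call Col8a1 (adjusted p = 0.0723), and without VB replicate 3 Col16a1 was at an adjusted p of 0.0509.

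Col25a1 and Col8a1 were called in both sensory pairs, the first lower and the second higher in LP and in PO. A direct test of whether LP against LGd differed from PO against VB called none of the 14 members, 3 of which had an unadjusted p under 0.05, and 0.2% of all genes. For Col25a1 the difference between these log2 fold changes was -0.65 (95% interval -1.79 to 0.50). For Col24a1 it was -7.92 (-13.35 to -2.48, adjusted p = 0.225). DESeq2 called 4 members here and 610 of all 16423 genes it tested.

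The motor pair differed in 3 members, where 1.69% of all genes were called. Here Col25a1 was higher in the first nucleus, VM holding 129 to 456 CPM (median 379.7) and VL 32.3 to 100.5 CPM (median 61.4), without overlap and with a log2 fold change of 2.43 (SE 0.42, adjusted p = 3.27e-05). Col16a1 had reads in 5 of 6 VM libraries, up to 14.9 CPM, and 4 reads in all in VL, a log2 fold change of 6.43 (SE 1.48, adjusted p = 0.00468). Col24a1 was lower in VM, where no library exceeded 0.317 CPM, than in VL, where the lowest held 6.73 CPM, a log2 fold change of -8.22 (SE 2.17, adjusted p = 0.0207). That call was lost with amplification date as a block (adjusted p = 0.114), without pooled libraries (adjusted p = 0.0502) and without VM replicate 1, 2, 4 or 5, although the groups did not overlap. The newer quasi-likelihood did not call Col16a1 (adjusted p = 0.168).

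The anterior pair showed the largest change of Col25a1. It stood at 1.27, 4.46, 0.708 and 0.414 CPM in AD and from 116 to 651 CPM (median 515) in AV, a log2 fold change of -8.06 (SE 0.67, adjusted p = 1.23e-18). Col12a1 had no read in AD and 1.25 to 90.3 CPM (median 11.1) in AV, at least 348-fold lower in AD (adjusted p = 0.0005). Col8a1 had no read in AD either and averaged 1.58 ± 3.39 CPM in AV, where 4 of 8 libraries had none, replicate 2 held 9.66 CPM and the others at most 2.58 (adjusted p = 0.0387). The Col8a1 call was lost without any 1 AD library, without AV replicate 2 (adjusted p from 0.0993 to 0.149) and with the newer quasi-likelihood (0.679). Altogether 3 members were called, all lower in AD, where 5.69% of all genes were called. Col27a1, high in both nuclei, had a difference of 0.06 with a 95% interval of -2.06 to 2.19. Recorded ages ran from 97 to 100 in AD and from 97 to 444 in AV, and the part of age was not tested.

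The cingulate pair differed in 2 members, both lower in RE, where 1.84% of all genes were called. AM came from females and RE from both sexes. Col25a1 held 22.5 to 65.6 CPM (median 41.8) in RE and 742, 691, 944 and 642 CPM in AM, a log2 fold change of -4.14 (SE 0.42, adjusted p = 8.1e-13). Col27a1 did not exceed 0.137 CPM in RE and held 88.3, 66.1, 9.97 and 50.4 CPM in AM, a log2 fold change of -10.01 (SE 1.45, adjusted p = 3.34e-07). Col4a2 had a log2 fold change of -2.27 (SE 0.68, adjusted p = 0.0571), just short of a call, and passed with the replicate number as a block (log2 fold change -2.52, adjusted p = 0.0341). In the 4 animals that gave both nuclei, taken alone with the animal as a block, Col25a1 (log2 fold change -4.57, adjusted p = 1.13e-05) and Col27a1 (log2 fold change -11.46, adjusted p = 7.02e-05) were called.

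Over the 5 pairs, Col25a1 was called in each, lower in LP, PO, AD and RE and higher in VM. Col8a1 was called in 3, higher in LP and PO and lower in AD, Col16a1 in 2, higher in PO and VM, and Col24a1 in 2, lower in LP and VM. Col27a1, Col12a1 and Col4a1 were called in 1 each. Col15a1, Col18a1, Col9a2, Col9a3, Col20a1, Col26a1 and Col4a2 were called in none of the pairs. Col15a1 was called higher in LP than in LGd with DESeq2 (adjusted p = 0.00946), the compared groups alone (0.0137), the newer quasi-likelihood (0.0218) and without LGd replicate 4 (0.0332), and higher in PO than in VB with the newer quasi-likelihood (0.00558). Col18a1 was called lower in AD than in AV with the newer quasi-likelihood (0.000548) and lower in RE than in AM without RE replicate 2 (0.0371). The median log2 fold change of the 14 members was 1.31 in LP, 0.60 in PO, 0.30 in VM, -0.87 in AD and -0.85 in RE, each against its partner and with members unread in 1 nucleus at their bound. Over all genes tested it lay between -0.08 (AD) and 0.10 (LP).

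Among the intralaminar nuclei, PF was set against the mean of CL, PCN and CM. None of the 14 members was called by edgeR, 3 had an unadjusted p under 0.05, and edgeR called 0.0605% of all genes. DESeq2 called 3 members and 274 of all 16423 genes it tested. Col25a1 held 317, 133, 397 and 625 CPM in PF and 312 to 1002 CPM in the others (95% interval of the log2 difference -1.38 to 0.24). Col12a1 held 298, 309, 266 and 301 CPM in PF and 66.6 to 489 CPM in the others (-1.63 to 2.17).

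The tracer could be compared within CM alone, 4 libraries by AAV against 3 by DiI, made on different dates. No member was called by edgeR, which called 0.00605% of all genes, and Col15a1 had an unadjusted p under 0.05. DESeq2 called Col15a1 and 474 of all 16423 genes it tested. The intervals of the log2 difference were -1.33 to 0.73 for Col25a1 and -2.66 to 2.43 for Col12a1. They use the spread estimated over all 24 groups, so the several-fold width for Col12a1 is not that of the CM libraries alone. Within CM, Col12a1 held 229 to 489 CPM by AAV (mean 358 ± 108) and 291 to 440.1 CPM by DiI (mean 389 ± 84.6). Col24a1 held 7.84, 11.6, 0.436 and 3.14 CPM by AAV and 37.2, 31.6 and 11.9 CPM by DiI, without overlap, at an adjusted p of 1.

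Each nucleus was also set against the mean of the other 21. Over the 308 tests of 14 members in 22 nuclei 59 were called, 47 higher and 12 lower, a share of 19.2% where all genes over the same contrasts gave 12%. Col25a1 took 17 of them, higher in AM, AV, CM, IAD, IMD, MD, PCN, SPA, VA and VM and lower in AD, LD, LP, PO, RE, VL and VPMpc. Col12a1 was called higher in the 7 striatum-labelled nuclei and in VA. Col27a1 was called higher in AD, AV, AM, IAD and LD. Col15a1 and Col8a1 were each called higher in LP, MD, PO, RE and VPMpc, and Col8a1 also in CL. MD was called for 7 members, all higher, in a contrast that also called the most of all genes of any nucleus, 5223 of 16527. These were Col25a1, Col4a1, Col8a1, Col15a1, Col16a1, Col18a1 and Col24a1. Of these, Col8a1, Col15a1 and Col24a1 rest on 1 library of 6. With replicate number 2 left out of every group, Col15a1 (adjusted p = 0.212) and Col24a1 (0.498) were not called. Other calls of single nuclei were lost as well. With the replicate number as a block the calls lost, with their adjusted p, were Col8a1 in MD (0.13), Col8a1 in PO (0.123) and Col8a1 in VPMpc (0.0617). With the newer quasi-likelihood they were Col15a1 in PCN (0.186), Col24a1 in LD (0.056), Col24a1 in LP (0.687), Col8a1 in PO (0.058) and Col8a1 in VPMpc (0.0757), and without pooled libraries Col15a1 in PCN (1), Col24a1 in LD (0.0892) and Col27a1 in LD (0.0591). Leaving out 1 replicate number of every group took the call from Col15a1 in PCN (without number 1 or 2, adjusted p 0.0546 to 1), Col24a1 in LD (without number 2 or 5, adjusted p 0.0634 to 0.0819), Col24a1 in LP (without number 1, 3 or 4, adjusted p 1), Col25a1 in IMD (without number 2 or 4, adjusted p 0.0645 to 0.0673), Col25a1 in VM (without number 1 or 2, adjusted p 0.0549 to 0.119), Col8a1 in PO (without number 5 or 7, adjusted p 0.0516 to 0.0898), Col8a1 in VPMpc (without number 1, adjusted p 0.138) and Col9a2 in VPMpc (without number 2, adjusted p 0.183). Without number 6 the Col8a1 difference in MD was -0.67 on the log2 scale, the reverse sign. These contrasts average logarithms, which nuclei with few or no reads pull down. In plain CPM, the means of LD for Col27a1 (14.1) and of VA for Col12a1 (55.4) lie below the average of the other 21 nuclei. Because Col12a1, Col27a1, Col8a1 and Col15a1 have nuclei without reads, their fitted sizes are not given, apart from Col8a1 in MD. The Col8a1 value depends on the prior count.

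The enzymes, receptors and partners of collagens were taken from 5 lists. Of the genes that modify and fold the chains 15 of 18 were measured, 8 of them called over the nuclei (all genes, 55.1%), with none called between the classes (all genes, 18.4%). In the pairs only Creb3l1, a transcription factor of collagen secretion, was called, at 4.39 CPM in LP and no read in LGd. Of the processing and cross-linking genes 5 of 15 were measured and 4 called over the nuclei (all genes, 55.1%). Tll1, a proteinase that trims procollagen ends, was higher in the striatum-labelled nuclei, 39.5 ± 11.8 against 5.34 ± 3.79 CPM (log2 fold change 2.88, adjusted p = 0.000519). Tll1 was also higher in AD than in AV, and Adamts3, which trims the other end, lower, at 0.193 against 8.85 CPM (adjusted p = 0.00222). Between the classes, the Tll1 relative Bmp1 was lower, 4.95 ± 2.69 against 16.2 ± 6.67 CPM (log2 fold change -1.71, adjusted p = 0.00251).

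Of collagen receptors 5 of 12 were measured and 3 called over the nuclei (all genes, 55.1%). Itgb1, the common integrin beta chain, was lower in the striatum-labelled nuclei (log2 fold change -0.69, adjusted p = 0.0374), and Adgrg6, an adhesion receptor that binds collagen type IV, was lower too, 0.182 ± 0.355 against 36.04 ± 43.7 CPM (adjusted p = 0.002). Adgrg6 averaged 135 ± 11.1 CPM in IAD. It was higher in VM than in VL (17.8 against 0.0113 CPM, adjusted p = 6.01e-07). Adgrg1, a receptor of collagen type III, was higher in LP than in LGd, 9.16 against 0.0116 CPM (adjusted p = 0.00196). Of degradation genes 4 of 11 were measured and 3 called over the nuclei (all genes, 55.1%). The metalloproteinase inhibitor Timp2 was higher in LP, PO and VM than in LGd, VB and VL, at 905 against 342, 631 against 199 and 1240.0 against 372 CPM. All 3 Timp2 differences were called, with adjusted p-values from 1.09e-08 to 1.74e-06. Timp3, another such inhibitor, was higher in LP than in LGd, 203 against 44.98 CPM (adjusted p = 3.16e-06), and in VM than in VL, 120.4 against 52.1 CPM (adjusted p = 0.033). It was lower in AD than in AV, 11.3 against 164 CPM (adjusted p = 7.38e-12).

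Other basement membrane genes numbered 5 of 16 in the table, and all 5 were called over the nuclei (all genes, 55.1%). The laminin chain Lamb1 was lower in the striatum-labelled nuclei, 3.96 ± 1.45 against 25.6 ± 18.9 CPM (log2 fold change -2.70, adjusted p = 0.00204). It was also lower in AD than in AV, 1.22 against 24.5 CPM, and lower in LP than in LGd, 8.75 against 59.97 CPM, opposite to Col4a1 in that pair.

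Genes whose nucleus means most resembled the leading members were ranked by Pearson r of log2 levels over the 22 nuclei. For Col12a1 these were Rps2 (r = 0.918), a ribosomal protein gene with many near-identical copies whose counts are uncertain, Ephb3 (r = 0.916), an ephrin receptor, and Frmpd2 (r = 0.899). For Col25a1 they were Fam43a (r = 0.850), Itpr1 (r = 0.811), an intracellular calcium channel, and Cdh13 (r = 0.775), a cadherin. For Col27a1 they were Rspo3 (r = 0.827), a secreted enhancer of Wnt signalling, Gabrb1 (r = 0.805), a GABA receptor subunit, and Mybl1 (r = 0.793). For Col24a1 the nearest were weaker, Plekha7 (r = 0.673), Chst8 (r = 0.654) and Cpne4 (r = 0.650). These are descriptions over nuclei that share animals, tracers and dates.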

How the data were processed

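Neurons labelled from their target were picked by hand, RNA was extracted with the PicoPure kit and amplified with the Ovation RNA-seq v2 kit, per the labels' protocols, without molecular identifiers or strand. Per gene, the authors deposited raw whole-number counts for 120 libraries, with Ensembl IDs and symbols in the table, and a second table of other values (tracer, target, sex, amplification date, animal, cells). Reads were processed with STAR 2.5.3a, cutadapt 1.16 and featureCounts 1.52 and build mm10, per the submitters' processing notes. How these were set is not given in the sources used here. Gene positions and exon lengths are from GENCODE M21.

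The test was edgeR 4.0.16 under R 4.3.3 on the counts as they are, in 1 fit of 24 groups with TMM factors, filterByExpr (minimum count 10, minimum total 15, leaving 16527 of 16538 genes), trended dispersions and the quasi-likelihood F test, two-sided. Adjusted p-values are Benjamini-Hochberg over all genes tested, and a call is an adjusted p under 0.05. The class test used counts summed per nucleus in a fit of its own, over 15440 genes. CPM use the TMM-scaled library sizes. SE is the fold change over the square root of F, and intervals are 95%. Floors are 3 counts over a group. Intervals and floors cover counting error only where they come from summed counts. The scripts were tested on simulated data with known changes.

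The members, the lists of pathway genes and markers and the tests were chosen with earlier results of these data known. The rule for names was to give Col12a1, Col25a1, Col27a1, Col24a1 and the 8 further members with the largest F at a nucleus mean of at least 5 CPM in full, called members at 1 CPM or more in the higher group, up to 3 called genes a direction of each list at 5 CPM or more, and the 3 genes most like each of the 4 named members at 10 CPM or more. Libraries with the same replicate number came from the same animal at 4 of 4 numbers for RE and AM, 2 of 4 for AD and AV, 3 of 6 for VM and VL, 1 of 4 for PO and VB and 0 of 5 for LP and LGd. The deviations of such libraries from their group means correlated between -0.0493 and 0.0690 over genes.

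Alternatives were RLE size factors, no filter, edgeR's newer quasi-likelihood, DESeq2 1.42.0, the compared groups alone, the replicate number or the amplification date as a block, leaving out pooled libraries, each library, replicate number or nucleus (with the dispersions of the full fit for libraries and numbers), and within-date sums. Chosen after seeing the data were leaving out MD, leaving out libraries that stand apart, and the RE and AM libraries of shared animals alone.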

Additional observations from a re-analysis of the deposited data

Results flagged for a closer look

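Single libraries of a group stood far from the others for several collagen genes, by a comparison of the gap to the nearest library with the whole range in groups of 4 to 10. This was so in 31 of 169 combinations of a member and a group with a mean of at least 5 CPM (18.3%), and chance gives about 1 in 20, or 5%, for normally distributed values, which CPM here were not shown to be. For Col12a1, AM replicate 2 held 25.4 CPM against 0.459 to 3.91 and AV replicate 1 held 90.3 CPM against 1.25 to 35.6. For the same gene, MD replicate 3 held 92.4 CPM against 0 to 3.08. For Col15a1, MD replicate 2 held 187 CPM against 0 to 23.3 and PO replicate 4 held 171 CPM against 14.03 to 29.6. For Col18a1, AV replicate 3 held 183 CPM against 0.248 to 28.7 in the others of its group. For Col20a1, PCN replicate 4 held 5.70 CPM against 12.4 to 13.1 and MD replicate 6 held 84.5 CPM against 0.124 to 12.1. For Col24a1, MD replicate 2 held 126 CPM against 0 to 11.3 in the others of its group. For Col25a1, PCN replicate 4 held 1002 CPM against 533 to 605 in the others of its group. For Col26a1, PCN replicate 4 held 37.3 CPM against 0.579 to 2.93 and VA replicate 4 held 49.8 CPM against 0.262 to 23.1. For the same gene, VL replicate 5 held 25.6 CPM against 3.64 to 9.72 and LP replicate 1 held 38.5 CPM against 0.722 to 17.8. Also for Col26a1, MD replicate 2 held 71.3 CPM against 0.469 to 13.4. For Col27a1, LD replicate 2 held 57.02 CPM against 0 to 8.69 in the others of its group. For Col4a1, RE replicate 3 held 54.97 CPM against 3.06 to 12.2 and LP replicate 2 held 70.4 CPM against 10.8 to 32.5. For Col4a2, AM replicate 3 held 186 CPM against 17.7 to 37.3 and AV replicate 1 held 235 CPM against 13.2 to 40.9. For the same gene, LD replicate 1 held 137 CPM against 0.428 to 36.04 and LGd replicate 1 held 64.7 CPM against 0.424 to 13.2. For Col8a1, VA replicate 4 held 48.4 CPM against 0 to 4.96 and VM replicate 5 held 49.4 CPM against 0.777 to 7.19. For the same gene, MD replicate 6 held 139.9 CPM against 0 to 9.25. For Col9a3, IMD replicate 2 held 49.3 CPM against 21.3 to 23.2 and VM replicate 1 held 28.3 CPM against 0.330 to 7.49. For the same gene, RE replicate 1 held 37.6 CPM against 0.414 to 13.8 and AD replicate 2 held 57.4 CPM against 6.14 to 10.8. Also for Col9a3, LD replicate 2 held 108 CPM against 0 to 2.41 and VB replicate 3 held 8.04 CPM against 5.07 to 5.53. MD took 6 of these, spread over replicates 2, 3 and 6, so no single MD library carried them all. PCN replicate 4 was set apart for Col20a1, Col25a1 and Col26a1, low in the first and high in the others.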

How the results depend on the processing

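Of 448 tests of single members 87 were called, and over all alternatives 7183 values kept their direction and side of the threshold, 86 lost and 87 gained a call and 4 reversed. The reversals were Col20a1 and Col8a1 in MD against the other 21 without replicate 6 of every group and Col9a3 in LD against the other 21 without pooled libraries (log2 fold change -3.73) and without replicate 2, the libraries left out being those that held most of the level. Leaving out each replicate in turn gave -1.82 to 0.72 for Col20a1, -0.67 to 3.56 for Col8a1 and -3.73 to 1.15 for Col9a3 on the log2 scale. The Col8a1 values depend on the prior count, because AD and VB had no read of it. Counts of called members moved by over 1.5 times without pooled libraries for LP against LGd and PO against VB, where 1 LGd and 1 VB library remain. They also moved with amplification date as a block for PO against VB (1 member, and 222 of all genes against 438 in the main fit). They moved for RE against AM with the newer quasi-likelihood (4 members, 617 of all genes) and the compared groups alone (4 and 614). The main fit called 304 genes there. For the class within amplification dates 2 members and 874 of all genes were called, against 2837 genes in the main fit. The cause of these moves was not tested. DESeq2 called 3 members for PF against CL, PCN and CM, 4 for the difference between the sensory pairs and 1 for the CM tracers. Of all 16423 genes it called 274, 610 and 474 in that order. Leaving out 1 library, number or nucleus gave 9 to 10 called members over the nuclei, 2 to 5 between the classes (2 without PVT), 3 to 5 for LP against LGd, 2 to 3 for PO against VB, 2 to 3 for VM against VL, 2 to 3 for AD against AV, 2 to 3 for RE against AM, 0 for PF, the CM tracers and the difference between pairs, and 55 to 60 over the single nuclei. Without PVT the class test called 2017 of all genes, against 2837 in the main fit. With the replicate number as a block, the counts were 9 over the nuclei, 4 for LP against LGd, 3, 3, 3 and 3 for the other pairs in that order. Over all genes the block gave 8282, 521, 433, 259, 836 and 282 calls in the same order. Beside Col4a2 in RE against AM the block changed no call of the pairs. The test over nuclei called 13 members with the newer quasi-likelihood, 10 with DESeq2, 10 without pooled libraries, 9 without MD and 10 without the 23 libraries that stand apart. Of all genes, the newer quasi-likelihood called 10134 over the nuclei, DESeq2 8183, the fit without MD 8930 and that without the 23 libraries 8338. The main fit called 9113. Where a group had 0 to 3 counts, depth sets only a bound on the fold. A date block could not be fitted to the test over nuclei, the single nuclei or the CM tracers.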
